A study of Mus musculus with 16 samples.

Results

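The genes described here drive or mark cell division: 45 cell cycle and DNA replication genes, listed by name, of which 44 were measured among the 18193 genes of the arrays. Ccnb1 is the member without a value, because no probe set carried its name alone in the probe table used. Of the 44, 17 act in S phase or at the entry to it, 24 act in G2 and mitosis, and the other 3 are the D-type cyclins. Each gene was read from the probe set with the highest mean among those named for that gene alone.

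RNA from single ovaries of newborn (P0) XX mice was hybridised to Affymetrix whole-genome mouse arrays, 1 ovary to an array and 4 ovaries to each of 4 genotypes. Control ovaries were Runx1+/f Foxl2+/+ without the Cre transgene, and Foxl2 KO ovaries were Runx1+/f Foxl2-/-, also without it. Runx1 KO ovaries were Runx1-/f Foxl2+/+ and carried Sf1-cre (+/Tg), and DKO ovaries were Runx1-/f Foxl2-/- with the same transgene. All 16 ovaries therefore carried a floxed Runx1 allele, including the controls. The Sf1-cre transgene acts in somatic cells of the gonad, so in Runx1 KO and DKO the floxed allele was deleted only where it acts and the other allele was missing throughout, whereas Foxl2 was missing in the whole animal. Loss of Runx1 cannot be told apart from the presence of the transgene, since both groups that lost Runx1 carried Cre and the other two did not. The comparisons asked what the loss of either transcription factor, or of both, does to the newborn ovary.

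Cells commit to division in G1, when D-type cyclins and then E-type cyclins activate cyclin-dependent kinases and release E2F factors from the retinoblastoma proteins. E2F targets then license origins, unwind DNA and supply nucleotides for S phase, and a later wave of genes, driven through FOXM1, B-MYB and the DREAM complex, builds the spindle and separates the chromosomes. In the newborn mouse ovary the germ cells have left the mitotic cycle and entered meiosis, while somatic cells still divide, and the pre-granulosa cells that first surround oocytes are largely in arrest.

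Both waves of genes are known to be read from short elements close to the transcription start. RefSeq sequence (GRCm38.p6) was at hand for 35 of the 45 genes. The 250 bases upstream of the start are printed for 4 of the 5 members that stood highest in Control replicate 4, an ovary described below. Aurkb, the other one of those 5, had no entry. Cdc6 lies at chr11:98907901-98908150 (plus strand), Ccne1 at chr7:38107491-38107740 (minus strand), Rrm2 at chr12:24708004-24708253 (plus strand) and Top2a at chr11:99024190-99024439 (minus strand). Each run is written 5′ to 3′ in the direction of the gene, and capitals mark a CCAAT box (CCAAT or ATTGG), the cell cycle homology element (TTTGAA or TTCAAA) or an E2F site (TTTGGCGC or TTTCCCGC, or the reverse complement).
Cdc6: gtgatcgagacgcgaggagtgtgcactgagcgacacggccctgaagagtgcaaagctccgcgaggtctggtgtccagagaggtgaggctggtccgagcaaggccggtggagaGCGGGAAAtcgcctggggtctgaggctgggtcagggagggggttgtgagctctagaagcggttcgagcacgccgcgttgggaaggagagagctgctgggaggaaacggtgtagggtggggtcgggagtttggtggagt
Ccne1: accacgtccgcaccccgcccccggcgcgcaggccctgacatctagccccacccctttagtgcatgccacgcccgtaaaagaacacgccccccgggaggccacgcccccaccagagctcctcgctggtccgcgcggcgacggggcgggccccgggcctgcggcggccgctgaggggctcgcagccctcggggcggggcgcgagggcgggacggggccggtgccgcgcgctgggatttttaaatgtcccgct
Rrm2: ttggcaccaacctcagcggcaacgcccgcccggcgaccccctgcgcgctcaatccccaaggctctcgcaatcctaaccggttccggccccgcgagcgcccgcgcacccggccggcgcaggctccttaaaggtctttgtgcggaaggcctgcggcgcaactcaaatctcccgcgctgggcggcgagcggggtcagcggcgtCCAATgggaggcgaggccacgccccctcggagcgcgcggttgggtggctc
Top2a: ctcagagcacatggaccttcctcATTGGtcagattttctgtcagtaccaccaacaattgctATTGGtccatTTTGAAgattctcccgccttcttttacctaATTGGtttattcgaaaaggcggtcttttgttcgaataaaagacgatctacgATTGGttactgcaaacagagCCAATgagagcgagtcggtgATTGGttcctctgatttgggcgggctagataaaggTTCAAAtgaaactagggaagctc

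These letters were counted in both classes of genes. CCAAT was present on either strand in 27 of the 35 genes, in 17 of 20 mitotic genes and in 9 of 14 S-phase genes, against 37.5% of 27025 mouse genes with upstream regions of the same length, counting a gene with several starts once if any region held the letters. TTTGAA was present in 9 of 20 mitotic and 2 of 14 S-phase genes, against 18.3% of all genes. The E2F letters TTTCCCGC and TTTGGCGC were each found in 2 of 14 S-phase genes and in 0 of 20 mitotic genes, against 1.03% and 0.485% of all genes. The run of Top2a, the enzyme that untangles chromosomes before they part, held 6 CCAAT boxes and 2 TTTGAA elements, that of Cdc6 held 1 E2F site, that of Rrm2 1 CCAAT box, and that of Ccne1 none of these exact letters. In the printed runs no element shared a base with another. These are matches of letters and were not tested as binding sites.

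Before the genotypes are compared, Control replicate 4 has to be set apart, because it stood above the other ovaries in most of these genes. Against the mean of Control replicates 1 to 3, its 44 genes had a median difference of 0.89 on the log2 scale, a 1.86-fold higher intensity, where the median over all 18193 genes was -0.09. In 33 of the 44 genes it was the highest of all 16 ovaries, as it was for 10.2% of all genes, and 17 of 44 were over 2-fold higher, as were 3.93% of all genes. The median difference was 0.94 in the S-phase genes and 0.89 in the mitotic genes. With 1 ovary on one side, these differences carry no test.

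The gene that stood furthest out was Cdc6, which loads the MCM helicase onto origins. Its intensity was 348, 321, 340 and 2780 in the 4 control ovaries, 397, 303, 486 and 316 in Runx1 KO, 432, 297, 212 and 357 in Foxl2 KO, and 414, 365, 376 and 278 in DKO. Control replicate 4 was thus 7.93-fold above the mean of the other controls, and the remaining 15 ovaries overlapped freely. Aurkb, the kinase of the chromosomal passenger complex, followed at 4.58-fold, with 193, 356, 344 and 1376 in controls, 409, 292, 646 and 382 in Runx1 KO, 373, 296, 367 and 513 in Foxl2 KO, and 587, 351, 553 and 456 in DKO. Both genes separated 1 control ovary from all others. Rrm2, the regulated subunit of ribonucleotide reductase, measured 2515, 2771, 2570 and 9442 in the controls and 2243 to 4715 in the 12 knockout ovaries, given below. Ccne1, the cyclin that starts S phase, measured 277, 300, 276 and 1064 in controls, 347, 252, 348 and 419 in Runx1 KO, 290, 319, 267 and 264 in Foxl2 KO, and 451, 265, 269 and 393 in DKO. Top2a measured 879, 1101, 1148 and 3340 in controls, 1264, 880, 1877 and 952 in Runx1 KO, 1174, 970, 1033 and 1129 in Foxl2 KO, and 1543, 1118, 1645 and 1322 in DKO. In each of these 5 genes a single control ovary lay outside the range of the other 15.

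Markers of erythroid cells and of granulocyte precursors moved with that ovary. Of 15 measured erythroid markers, 14 were over 2-fold higher in Control replicate 4 than in the other controls. Hemgn, a nuclear protein of erythroid precursors, stood at 8133 against 1 to 37 in the other 15 ovaries, and the red cell anion exchanger Slc4a1 at 9842 against 61 to 178. The alpha-globin gene Hba-a1 was not higher, at 1 in Control replicate 4 and 2 to 41 elsewhere. These values lie near the bottom of the scale in every ovary, so a difference could hardly be read from them. All 10 granulocyte precursor markers were over 2-fold higher as well, with Mpo at 3220 against 2 to 47. Of 5 megakaryocyte markers 2 were over 2-fold higher in Control replicate 4, and of 9 macrophage markers 0. The erythroid score, the mean log2 deviation of the list from its means over the 16 ovaries, was 3.70 there and -0.53 to -0.07 in the other 15, and the granulocyte score was 4.67 against -0.82 to 0.85. Of 6 hepatocyte markers 2 were over 2-fold higher there. Oocyte markers had their lowest score in the same ovary, -0.57 against -0.45 to 0.75. So did markers of the Sertoli cells of the testis, at -0.96 against -0.67 to 0.77. The score of pre-granulosa markers was 0.16 in Control replicate 4 and 0.52 to 0.73 in the other controls. The part of these cells in the cell cycle values was not tested.

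**Figure D1:**
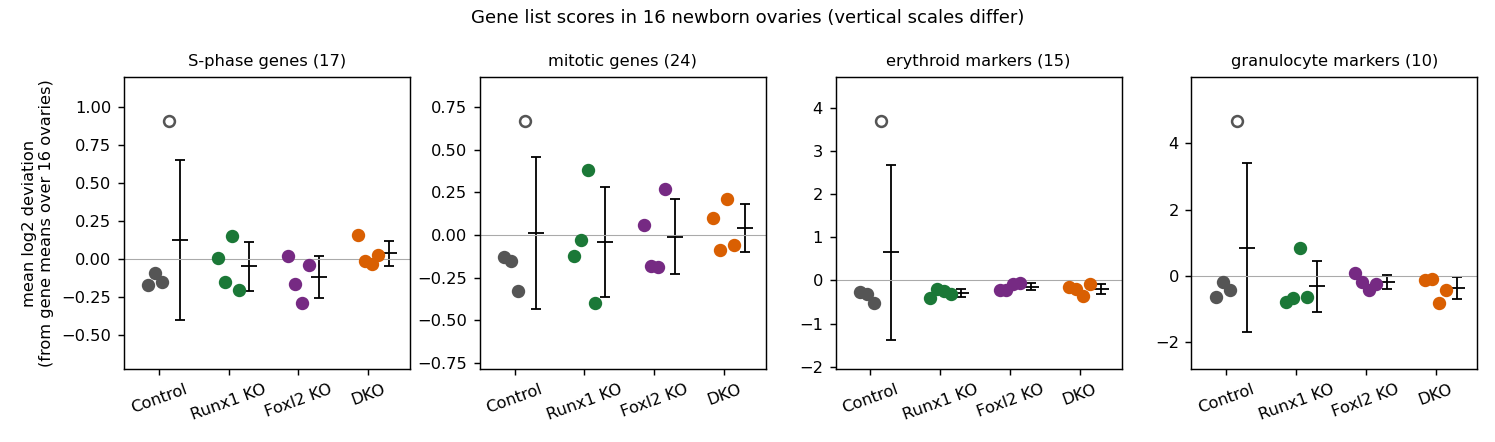
Scores of the S-phase genes, the mitotic genes, the erythroid markers and the granulocyte precursor markers in each ovary, on the vertical axis as the mean log2 deviation from each gene's mean over 16 ovaries, by genotype on the horizontal axis. Each point is 1 ovary, the open point is Control replicate 4, and the bars give mean ± SD of 4 ovaries. Control replicate 4 lies at 0.91, 0.67, 3.70 and 4.67, above the other 15 ovaries in each panel.

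Not every member was high in Control replicate 4. Read from the probe set that represents each gene, 3 genes lay below the mean of the other controls. They were Ccnd1 (0.944 of that mean), Tyms (0.967) and Ccnd2 (0.986). Tyms, which makes thymidylate, measured 210, 152, 156 and 165 in the controls, 140, 147, 95 and 205 in Runx1 KO, 149, 111, 140 and 186 in Foxl2 KO, and 130, 173, 195 and 209 in DKO, with all 4 groups overlapping. Prc1, Ube2c, Cenpf, Bub1 and Chek1 differed by at most 1.19-fold. Another probe set of Ccnd1 stood at 170 in Control replicate 4 and at 113, 127 and 104 in the other controls. The other probe sets of Tyms gave log2 differences of 0.03, -0.45 and -0.16 in DKO against control. Without Control replicate 4 these were 0.17, -0.11 and -0.09, so that ovary was high in them.

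**Figure D2:**
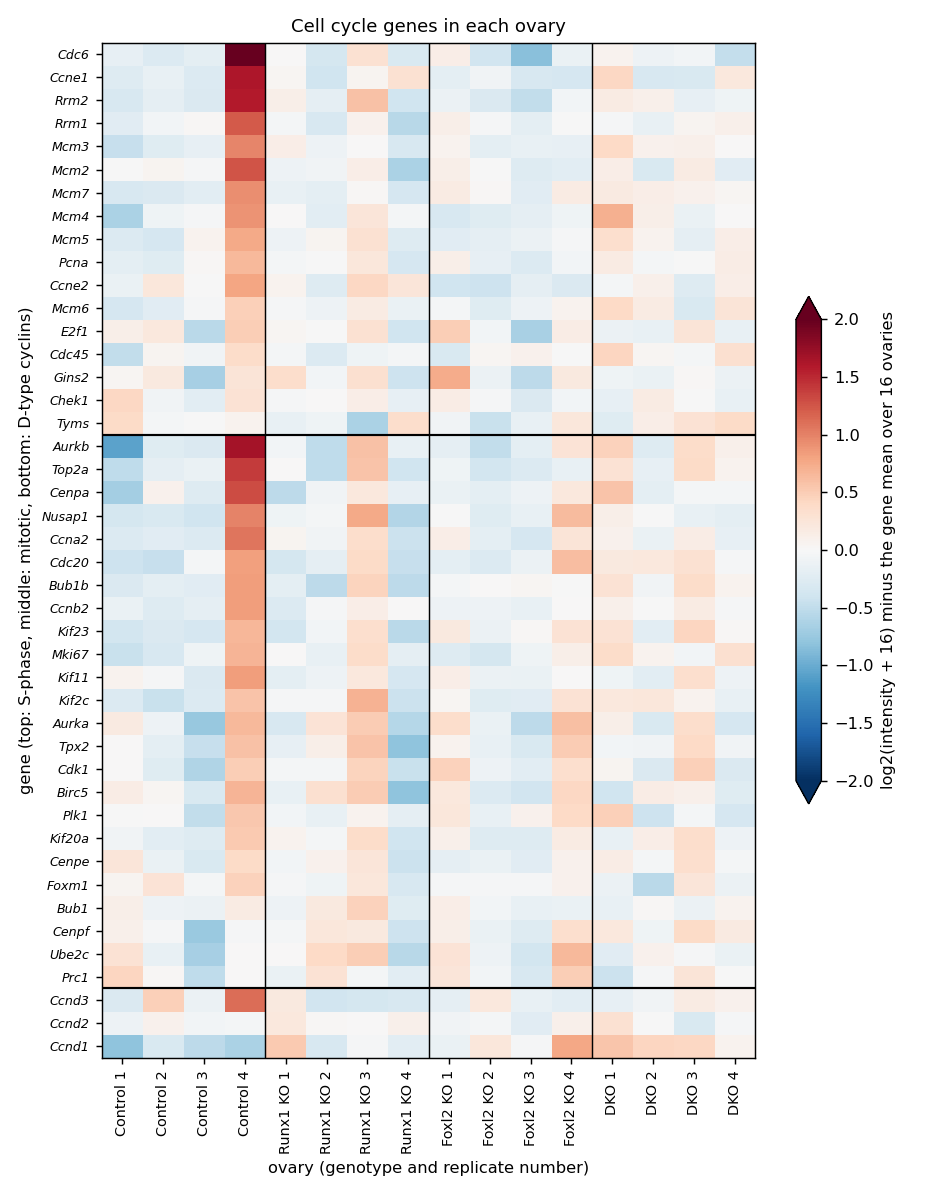
Each of the 44 measured genes (rows, ordered within S-phase, mitotic and D-type cyclin blocks by their difference in Control replicate 4) in each of the 16 ovaries (columns). Colour is log2(intensity + 16) minus the gene's mean over the 16 ovaries, red above and blue below it. The column of Control replicate 4 is red in most rows and near white in Tyms, Prc1 and Ccnd2, and the Ccnd1 row is blue in all 4 controls.

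Against this background, 1 of the 44 genes passed the test in any comparison. Ccnd1 (cyclin D1), which couples growth signals to the G1 kinases CDK4 and CDK6, was higher in DKO ovaries than in controls. Its intensity was 486, 690, 591 and 550 in the 4 controls, 1246, 684, 850 and 739 in Runx1 KO, 785, 1004, 846 and 1479 in Foxl2 KO, and 1273, 1166, 1146 and 907 in DKO. No DKO or Foxl2 KO ovary overlapped the controls, and 1 Runx1 KO ovary, at 684, lay below the highest control. The mean log2 level was 9.21 ± 0.21 in controls and 10.14 ± 0.21 in DKO (SD, n = 4 each), a difference of 0.94 ± 0.21 (SE) or 1.91-fold (limma, adjusted p = 0.0307).

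The count of 1 called gene in DKO has to be read against 1.28% of all genes called higher (2.13% in either direction), and the count of 1 non-overlapping gene against 4.9%. Without that ovary the difference was 0.92 with an adjusted p of 0.0689 in limma, and the call was also lost without Control replicate 1 or 3 or DKO replicate 1, 2 or 3, where leaving out single ovaries gave differences of 0.86 to 1.03 and adjusted p-values of 0.0135 to 0.0991.

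The single knockouts lay between. The difference of Ccnd1 from control was 0.78 ± 0.21 in Foxl2 KO (limma, adjusted p = 0.10) and 0.56 ± 0.21 in Runx1 KO (adjusted p = 0.578), neither past the threshold. DKO exceeded Foxl2 KO by 0.16 ± 0.21 (adjusted p = 1) and Runx1 KO by 0.37 ± 0.21 (adjusted p = 0.664). The interaction, which asks whether loss of both genes differs from the sum of the single losses, was -0.40 ± 0.30 (adjusted p = 0.941). The order control, Runx1 KO, Foxl2 KO, DKO is therefore one in which only the ends were called apart.

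Ccnd1 had 3 probe sets, and each was higher in all 3 knockout groups on average. The probe set with the lowest mean intensity gave 113, 127, 104 and 170 in controls, 187, 225, 195 and 193 in Runx1 KO, 202, 226, 165 and 320 in Foxl2 KO, and 369, 260, 359 and 291 in DKO. Here no Runx1 KO or DKO ovary overlapped the controls, and 1 Foxl2 KO ovary, at 165, lay below Control replicate 4. In a fit of every probe set of the arrays, its difference in DKO was 1.22 ± 0.19 (limma, adjusted p = 0.00254) and 1.35 without Control replicate 4 (adjusted p = 0.00184). The third probe set gave 0.77 ± 0.19 (adjusted p = 0.0719), and the one that represents the gene 0.94 with an adjusted p of 0.0455. In Foxl2 KO the 3 probe sets gave 0.66 to 0.78, and in Runx1 KO 0.32 to 0.60, none of them past the threshold.

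Cell type markers moved with the same groups as Ccnd1. Of 10 pre-granulosa markers, 4 were called in Foxl2 KO and 5 in DKO, all lower, against 1.52% and 2.13% of all genes. The list and its score include Foxl2 itself, the gene deleted in both groups. Their score ran from 0.16 to 0.73 in controls, 0.14 to 0.42 in Runx1 KO, -0.56 to -0.09 in Foxl2 KO and -0.52 to -0.42 in DKO. Of 8 Sertoli markers, genes of the supporting cells of the testis, 5 were called in each of Foxl2 KO and DKO, all higher. In Runx1 KO 1 was called, against 0.121% of all genes. The Sertoli score ran from -0.96 to -0.56 in controls, -0.47 to -0.09 in Runx1 KO, 0.20 to 0.77 in Foxl2 KO and 0.40 to 0.63 in DKO. Amh, a defining Sertoli hormone, stayed at 9 to 45 in all 16 ovaries, near the bottom of the scale. The part of these cells in the Ccnd1 level was not tested. In whole ovaries, more cells of a type and more RNA per cell cannot be told apart.

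**Figure D3:**
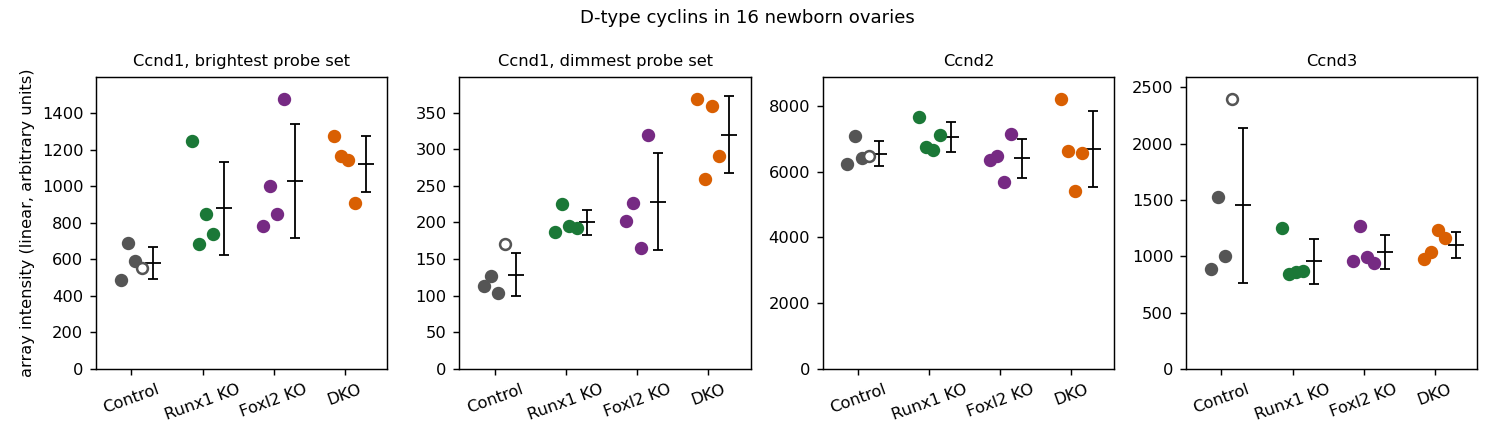
Array intensity (linear, arbitrary units, vertical axis from 0) of Ccnd1 in 2 of its probe sets, Ccnd2 and Ccnd3 in each ovary, by genotype on the horizontal axis. Points are ovaries, the open point is Control replicate 4, and the bars give mean ± SD of 4 ovaries. In the first panel all DKO ovaries, from 907 to 1273, lie above all controls, from 486 to 690, while the groups overlap for Ccnd2 and Ccnd3.

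The other G1 cyclins did not follow Ccnd1 in the probe sets that represent them. Ccnd2, a D-type cyclin known for its role in granulosa cell growth, measured 6219, 7083, 6407 and 6465 in controls, 7660, 6754, 6669 and 7126 in Runx1 KO, 6341, 6474, 5684 and 7137 in Foxl2 KO, and 8218, 6640, 5402 and 6555 in DKO. All 4 groups overlapped in this probe set. In the fit of every probe set, the other probe sets of Ccnd2 gave -0.36 to -0.1 in DKO. They gave -0.43 to -0.15 in Foxl2 KO and -0.39 to 0.07 in Runx1 KO, none of them past the threshold. Ccnd3, the D-type cyclin prominent in blood cells, measured 889, 1525, 1005 and 2399 in controls, 1254, 840, 857 and 873 in Runx1 KO, 960, 1268, 991 and 940 in Foxl2 KO, and 978, 1037, 1231 and 1164 in DKO. Control replicates 2 and 4 lay above all 12 knockout ovaries. Its difference in Runx1 KO was -0.51 ± 0.25 (limma, adjusted p = 0.693) and -0.23 without Control replicate 4 (adjusted p = 0.940). With every probe set fitted, the other probe sets of Ccnd3 gave 0.53 and -0.32 in Foxl2 KO, against -0.38 in this one. They gave -0.16 and -0.58 in Runx1 KO and -0.23 and -0.09 in DKO, none past the threshold.

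Ccne2, the second E-type cyclin, had the smallest unadjusted p among the genes lower in Foxl2 KO. It measured 362, 467, 397 and 699 in controls, 420, 331, 537 and 474 in Runx1 KO, 297, 295, 350 and 324 in Foxl2 KO, and 385, 427, 329 and 437 in DKO. All 4 Foxl2 KO ovaries lay below all controls, with Control replicate 4 and without it. The difference was -0.54 ± 0.19 (limma, adjusted p = 0.252) and -0.35 without Control replicate 4 (adjusted p = 0.527), so it did not pass the test. In Foxl2 KO, 1 gene of the 44 was higher without overlap and 1 lower, against 4.49% and 2.23% of all genes, and 0 were called, against 1.52%.

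No S-phase gene passed the test in any of the 6 comparisons. The transcription factor E2f1, which opens the S-phase programme, measured 462, 491, 285 and 604 in controls, 437, 422, 526 and 318 in Runx1 KO, 600, 409, 264 and 473 in Foxl2 KO, and 389, 380, 508 and 382 in DKO. Mcm6, a subunit of the replicative helicase, measured 6068, 6558, 7506 and 10655 in controls, 7544, 7119, 8613 and 7003 in Runx1 KO, 7419, 6472, 7151 and 8017 in Foxl2 KO, and 10089, 8543, 6185 and 9104 in DKO. Neither gene separated any knockout group from the controls in these probe sets. With every probe set fitted, the others of E2f1 gave 0.15 and 0.35 in Runx1 KO. They gave 0.04 and 0.51 in Foxl2 KO and 0.08 and 0.44 in DKO, none past the threshold. Rrm2 measured 3417, 2777, 4715 and 2386 in Runx1 KO, 2897, 2573, 2243 and 3037 in Foxl2 KO, and 3544, 3387, 2820 and 2966 in DKO, so that the DKO ovaries lay above Control replicates 1 to 3 and far below Control replicate 4. Chek1, the S-phase checkpoint kinase, measured 1890, 1342, 1210 and 1733 in controls, 1386, 1412, 1554 and 1260 in Runx1 KO, 1557, 1391, 1150 and 1361 in Foxl2 KO, and 1254, 1577, 1396 and 1275 in DKO, and its groups overlapped.

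For Cdc6 the direction in Runx1 KO and DKO depended on 1 ovary. Its difference from control was -0.62 ± 0.51 in Runx1 KO, -0.84 ± 0.51 in Foxl2 KO and -0.67 ± 0.51 in DKO (limma, adjusted p = 0.825, 0.606 and 0.655). Without Control replicate 4 the values were 0.13 ± 0.22, -0.09 ± 0.22 and 0.07 ± 0.22 (adjusted p = 0.970, 0.958 and 0.950). None of these passed the test.

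No mitotic gene passed the test either. Mki67, the nuclear protein used to mark cycling cells, measured 4844, 5288, 6259 and 10606 in controls, 6672, 5987, 8495 and 5846 in Runx1 KO, 5499, 5169, 6193 and 7166 in Foxl2 KO, and 8569, 6910, 6397 and 8224 in DKO. Each DKO ovary exceeded Control replicates 1 to 3, the closest pair being 6397 and 6259, and Control replicate 4 exceeded them all. Ccna2 (cyclin A2), which serves both S phase and mitotic entry, measured 1987, 2054, 1980 and 5038 in controls, 2491, 2289, 3076 and 1769 in Runx1 KO, 2642, 2104, 1893 and 2863 in Foxl2 KO, and 2550, 2200, 2659 and 2144 in DKO. Its DKO ovaries too lay above Control replicates 1 to 3 and below Control replicate 4, whereas those of Top2a and Aurkb, given above, overlapped Control replicates 1 to 3.

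Other mitotic genes differed by as much between ovaries of 1 genotype as between genotypes. Ube2c, the ubiquitin-conjugating enzyme of the anaphase-promoting complex, measured 5422, 3964, 2778 and 4446 in controls, 4443, 5840, 6214 and 2998 in Runx1 KO, 5326, 4120, 3409 and 6936 in Foxl2 KO, and 3786, 4677, 4340 and 4026 in DKO. Cenpf, a kinetochore protein, measured 2272, 2078, 1259 and 2073 in controls, 2050, 2463, 2423 and 1573 in Runx1 KO, 2290, 1918, 1757 and 2682 in Foxl2 KO, and 2448, 1981, 2745 and 2383 in DKO. For Prc1, which bundles the central spindle, the values were 2205, 1652, 1140 and 1630 in controls, 1475, 1994, 1577 and 1398 in Runx1 KO, 1936, 1565, 1304 and 2293 in Foxl2 KO, and 1202, 1601, 1945 and 1614 in DKO. In these 3 genes every pair of genotypes overlapped, and Control replicate 4 was not the highest ovary. Birc5 (survivin), a chromosomal passenger protein, measured 3374, 3122, 2465 and 4872 in controls, 2763, 3822, 4340 and 1735 in Runx1 KO, 3533, 2519, 2325 and 4066 in Foxl2 KO, and 2313, 3399, 3278 and 2574 in DKO. The spindle kinesin Kif11 measured 1935, 1825, 1508 and 3301 in controls, 1611, 1722, 2137 and 1470 in Runx1 KO, 2038, 1699, 1687 and 1871 in Foxl2 KO, and 1746, 1604, 2335 and 1732 in DKO. In both, Control replicate 4 was the highest of the 16 ovaries and the genotypes overlapped without it as well.

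Foxm1, the transcription factor of the mitotic wave, measured 307, 360, 286 and 411 in controls, 290, 277, 349 and 234 in Runx1 KO, 289, 289, 292 and 314 in Foxl2 KO, and 270, 198, 354 and 270 in DKO. Its difference in DKO, -0.32 ± 0.17, was the second in order of p among the 44 genes in that comparison, yet its adjusted p was 0.473 in limma, and -0.23 without Control replicate 4 had 0.719. It rested on the choice of probe set. Of the 3 other probe sets of Foxm1, the differences in DKO were 0.27, 0.31 and -0.31, and the mean of all its probe sets gave -0.01 (adjusted p = 0.989).

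Over the list as a whole, leaving out Control replicate 4 moved the genes up against control, across zero at the median in Runx1 KO and Foxl2 KO and from near zero in DKO. In Runx1 KO, 12 of 44 genes were above the control mean with a median of -0.09, and without that ovary 36 of 44 with a median of 0.15. In Foxl2 KO the counts were 14 and 33 and the medians -0.11 and 0.11. In DKO they were 23 and 36, and 0.01 and 0.24. The median over all genes moved by far less, from 0.04 to 0.02 in Runx1 KO, 0.05 to 0.04 in Foxl2 KO and 0.04 to 0.03 in DKO.

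Both classes moved up. Of 17 S-phase genes, 2, 2 and 8 were above control in Runx1 KO, Foxl2 KO and DKO, and 13, 11 and 14 without Control replicate 4. Of 24 mitotic genes, 8, 11 and 13 were above control, and 21, 21 and 20 without it. The medians without it were 0.11, 0.04 and 0.21 for the S-phase genes and 0.17, 0.23 and 0.25 for the mitotic genes. These genes share their control ovaries in all 3 comparisons and move together within an ovary, so a count of signs is a description and not a test.

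**Figure D4:**
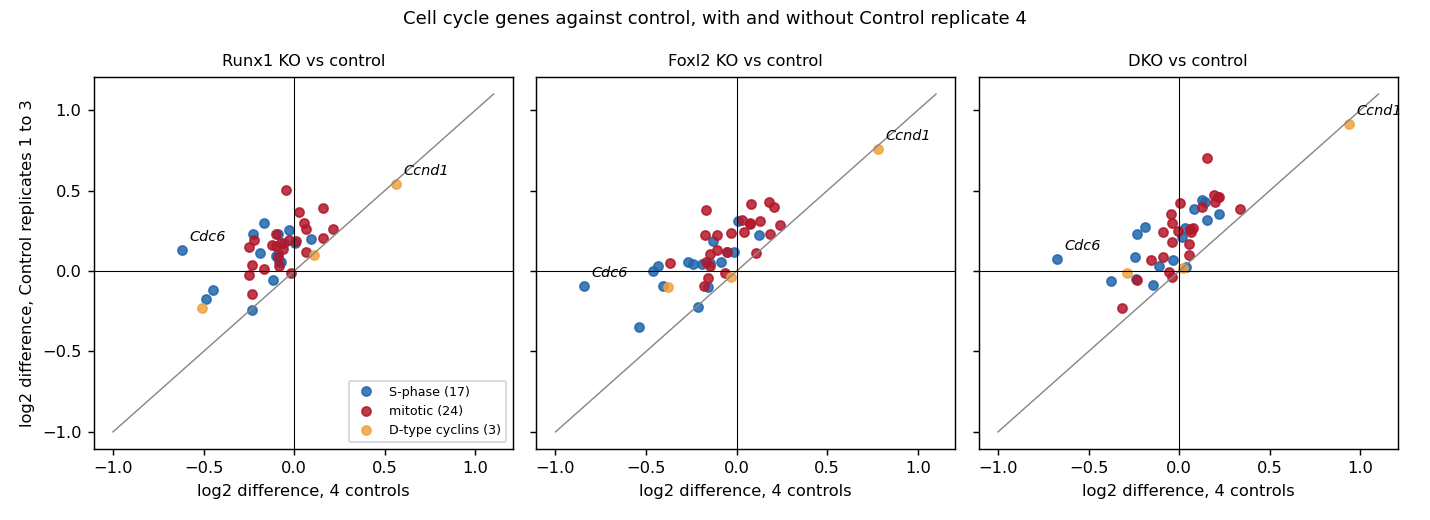
The log2 difference of each of the 44 genes from control in Runx1 KO, Foxl2 KO and DKO, with all 4 control ovaries on the horizontal axis and with Control replicates 1 to 3 on the vertical axis. Each point is a gene coloured by class, and the diagonal marks equal values. Most genes lie above the diagonal, Cdc6 furthest from it, while Ccnd1 stays close to it at 0.56, 0.78 and 0.94.

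None of the 44 genes was called in limma without Control replicate 4, where 0.104% of all genes were called in Runx1 KO, 1.31% in Foxl2 KO, 1.92% in DKO, 0.044% in DKO against Foxl2 KO, 1.13% in DKO against Runx1 KO and 0% for the interaction. In DKO, 12 genes then stood above the 3 remaining controls without overlap, against 6.55% of all genes: Mki67, Ccna2, Ccnb2, Ccnd1, Cdc20, Mcm3, Mcm7, Rrm2, Bub1b, Kif23, Kif2c and Nusap1. They include replication genes (the helicase subunits Mcm3 and Mcm7, and Rrm2) and genes of the spindle checkpoint and anaphase (Bub1b, and the activator Cdc20). In Foxl2 KO there were 5 (Ccnd1, Bub1b, Kif23, Kif2c and Nusap1), against 6.13%, and Ccne2 was the 1 gene below, against 3.81%. In Runx1 KO there was none in either direction, against 3.64% higher and 2.9% lower, and with all ovaries again none, against 2.53% and 1.44%. At an unadjusted p under 0.05, limma gave 8 of 44 genes in DKO without that ovary, all higher, against 10.9% of all genes, and 1 of 44 with it, against 12.4%. Control replicate 4 was the highest ovary in 33 of the 44 genes, against 10.2% of all genes. Leaving it out therefore raises the counts above control in advance, and the shares over all genes are no even reference for them. The members also move together within an ovary, so these counts are a description and not a test.

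For Runx1 KO the count called was 0 of 44, against 0.121% of all genes, with 1 gene at an unadjusted p under 0.05 in limma, against 7.34%. In Foxl2 KO there were 2 at an unadjusted p under 0.05, against 11%. Comparisons among the knockouts take no difference from a control ovary, but they share the estimate of the spread with the controls. Here 0 of 44 genes were called in DKO against Foxl2 KO (0.0605% of all genes) or against Runx1 KO (0.989%), with 0 at an unadjusted p under 0.05 in limma in both, against 5.38% and 9.43%. Without Control replicate 4 the latter comparison had 1 gene at an unadjusted p under 0.05, against 10.1%, and the former still 0. The medians were 0.13 and 0.09, with single genes from -0.22 to 0.39 and from -0.16 to 0.37. Mcm7 was the 1 gene of the 44 whose DKO ovaries, at 4401, 4262, 4121 and 3998, all lay above the Runx1 KO ovaries, at 3521, 3407, 3945 and 3064, as did 3.22% of all genes. The interaction gave 0 calls, against 0.011% of all genes, and 0 at an unadjusted p under 0.05 in limma, against 5.33%. Its median was 0.25, and -0.01 without Control replicate 4.

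The ovaries of a genotype differed widely among themselves. The score of the mitotic genes was 0.38 in Runx1 KO replicate 3 and -0.40 in Runx1 KO replicate 4, which share a genotype. The oocyte score was 0.75 and -0.37 in these ovaries, the granulocyte score 0.85 and -0.63, the megakaryocyte score 0.35 and -0.35, and the erythroid score -0.25 and -0.32, and the part of these cells was not tested. In Foxl2 KO the mitotic score ran from -0.19 to 0.27, in DKO from -0.09 to 0.21, and in Control replicates 1 to 3 from -0.33 to -0.13. The S-phase score ran from -0.20 to 0.15 in Runx1 KO, -0.29 to 0.02 in Foxl2 KO, -0.03 to 0.16 in DKO and -0.17 to -0.09 in Control replicates 1 to 3. With 4 ovaries a group, a log2 difference had a standard error of 0.203 at the median over all genes, so shifts of the size of these medians were not detectable gene by gene.

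A wider list of 93 cell cycle genes outside the 45 held 42 of replication and 51 of mitosis. In limma, 0 of 93 were called in any comparison, with 1 gene at an unadjusted p under 0.05 in each comparison with control, against 7.34%, 11% and 12.4% of all genes in Runx1 KO, Foxl2 KO and DKO. Of the 93, 34, 26 and 36 were above control in Runx1 KO, Foxl2 KO and DKO, and 68, 59 and 66 without Control replicate 4. Ncapd2, a condensin subunit that compacts mitotic chromosomes, was the 1 gene called without that ovary, higher in Foxl2 KO by 1.02 (limma, adjusted p = 0.0283), in a fit that called 1.31% of all genes, where all ovaries gave 0.47 ± 0.40 (adjusted p = 0.743).

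The labels were checked through the targeted genes. Foxl2 measured 2774 to 4241 in controls and 2641 to 3585 in Runx1 KO, but 484 to 890 in Foxl2 KO and 570 to 839 in DKO. Runx1 measured 2142 to 2359 in controls, 932 to 2127 in Runx1 KO and 2356 to 3054 in Foxl2 KO, while DKO, at 2111 to 2370, overlapped the controls, so this probe set does not separate the DKO ovaries by their Runx1 label. Over all genes, 22 were called in Runx1 KO, 276 in Foxl2 KO and 388 in DKO.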

How the data were processed

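Newborn mouse ovaries were profiled on Affymetrix whole-genome mouse arrays, 4 per genotype, 1 ovary per array. The deposited values are linear intensity values per probe set, made by the authors with Affymetrix Expression Console 1.2 (per the submitters' processing notes) and scaled to a mean of 500 per array after trimming 2% at each end. The summary algorithm is not given in the sources used here, and the study itself tested RMA log2 values. A log2 table had been assumed, but the values are linear. For that reason 16 was added to each intensity before log2, which understates changes of dim genes.

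Of 45101 probe sets, 34945 had 1 gene, 932 several and 9160 none given, and 64 were controls. Symbols were updated through RefSeq, and the probe set with the highest mean stood for each of 18193 genes. limma 3.58.1 (R 4.3.3, statmod 1.5.0) fitted 4 group means over 16 arrays (12 residual degrees of freedom), two-sided, with Benjamini-Hochberg adjustment over all genes, called at 0.05. Each adjusted p comes from that fit unless stated. Fold changes are on the log2(intensity + 16) scale. The script was tested on simulated data. The study calls its controls littermates, without saying which ovaries shared a litter. Nothing says whether the ovaries of a genotype came from separate litters, so p-values measure the spread between these ovaries. The number of arrays limits precision.

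The members and all lists were chosen with earlier results of these data known. Values in every ovary were given for members called, the highest-mean member of each role group, the 5 largest and 3 smallest differences in Control replicate 4, and the 2 smallest p-values per comparison with control. Mcm7 and the genes listed as not overlapping were named after their values were seen. Alternatives changed the offset, normalization, probe set choice, low-level filter, prior, weights, replicate block, covariates, test and samples, as given in the closing section. Promoters came from RefSeq (GRCm38.p6).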

Additional observations from a re-analysis of the deposited data

Results flagged for a closer look

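In groups of 4 ovaries, 1 ovary was set apart where its gap to the nearest other, divided by the group's range, exceeded Dixon's critical value for 4 values at the 95% level. Chance alone sets apart about 1 in 20 groups. Control replicate 4 was set apart, on the high side, for Cdc6 (0.964), Ccna2 (0.961), Ccne1 (0.940) and Rrm2 (0.927), for the score of the S-phase genes (0.925) and for the score of all 44 genes (0.853). Over all members it was high and apart in 11 of 44 genes, against 1.69% of the 18193 genes. The erythroid and granulocyte precursor markers moved with the same ovary, and their part in these values was not tested.

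Among the genes given in every ovary, the other ovaries set apart were DKO replicate 3, high for E2f1 at 508 (0.921), Runx1 KO replicate 1, high for Ccnd3 at 1254 (0.902), Foxl2 KO replicate 4, high for Foxm1 at 314 in a group spanning 289 to 314 (0.872), and Control replicate 3, low for Cenpf at 1259 (0.844). Over all 44 genes, an ovary was set apart in 12 in controls, 1 in Runx1 KO, 2 in Foxl2 KO and 2 in DKO, against 6.54%, 5.49%, 5.97% and 5.88% of all genes.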

How the results depend on the processing

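Of 1065 values recomputed under 34 other settings, 1 of them chosen after seeing the data, 986 kept their direction and their side of the threshold, or stayed within the allowed spread. For the cell cycle genes, the count of 1 gene called in DKO (Ccnd1) became 0 with the methods' analysis of variance after adjustment and with the erythroid score as a covariate. Leaving out single ovaries gave 0 to 1, with 0 without Control replicate 1, 3 or 4 or DKO replicate 1, 2 or 3. Over all alternatives the difference of Ccnd1 in DKO ran from 0.86 to 1.03, and the mean of its probe sets gave 0.98 with an adjusted p of 0.00382 in limma. The count of 0 in Foxl2 KO became 1 (Ccnd1) with the mean of all probe sets, with genes above the median level, with a trended and robust prior, and with the methods' analysis of variance unadjusted. Cdc6 turned sign in Runx1 KO with the erythroid covariate (0.06) and ran from -0.89 to 0.13 in Runx1 KO and from -0.94 to 0.07 in DKO when single ovaries were left out, positive in both only without Control replicate 4. Under the added alternative, every probe set on its own without Control replicate 4, the interaction had 0 genes called. In each case the cause was not tested.

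Among all genes, the count called in Runx1 KO (22) was 13 with the mean of all probe sets, without probe sets shared between transcripts, with genes above the median level and with the adjusted analysis of variance, and 6 with only the groups compared. Only the groups compared gave 175 in Foxl2 KO, 4 in DKO against Foxl2 KO and 104 in DKO against Runx1 KO. The unadjusted analysis of variance gave 510, 914, 1087, 402, 752 and 572 over the 6 comparisons. In DKO against Foxl2 KO (11) the count was 17 with a floor of 16, 5 above the median level, 18 with array weights and 7 with the adjusted analysis of variance. The oocyte covariate gave 117 in DKO against Runx1 KO. For the interaction (2) it was 1 with every probe set on its own and 0 with an offset of 1, a floor of 16, genes above the median level, the adjusted analysis of variance or either covariate. Leaving out single ovaries gave 12 to 21, 183 to 294, 6 to 16, 111 to 205 and 0 to 4 in Runx1 KO, Foxl2 KO, DKO against Foxl2 KO, DKO against Runx1 KO and the interaction.

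The replicate numbers gave no sign of pairing: of 24 pairs with the same number, 1 correlated above 0.1, with a median of -0.0318. These correlations cannot tell whether ovaries shared a litter. With the number as a replicate block, 0 of the 44 genes were called in DKO (Ccnd1 0.94, adjusted p = 0.081 in limma), and 7 and 0 genes in DKO against Foxl2 KO and the interaction.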
